A study of Drosophila melanogaster with 4 samples.

Results

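The insulin, TOR restraint and FOXO genes are 8 genes of Drosophila melanogaster chosen by symbol, with earlier results of these data known. They are the secreted insulin antagonist ImpL2, the insulin receptor InR, the transcription factor foxo, its target Thor, the TOR inhibitors scyl and chrb, and step and srl. Of these, 7 matched 1 of the 14869 FlyBase gene IDs in the count files, and all 7 were among the 7883 genes that averaged 20 counts or more per library, called measured here. InR matched no ID through the name tables used and was not analysed here. Polyadenylated RNA was sequenced from S2 cells, a line of embryonic origin grown at 25 degrees, to follow how transcription responds over time when the chaperone Hsp90 is inhibited. Growing cells received the solvent DMSO, labelled 0 min, or radicicol in DMSO at 40 µM for 15, 30 or 60 min. Radicicol occupies the ATP site of Hsp90. Each condition had 1 library, so no value has a replicate error, and no library holds cells kept in DMSO for the same times.

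In flies, insulin-like peptides bind InR, which acts through the adaptor chico and the lipid kinase PI3K to activate the kinase Akt. Akt promotes growth through the kinase TOR and keeps the FOXO transcription factor out of the nucleus. When insulin signalling is low, FOXO enters the nucleus and switches on genes that restrain growth, Thor among them. In mammalian cells Akt is a known client of Hsp90.

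Gene counts summed to between 19153476 and 31028233 per library, the lowest total being that of DMSO, where 44.1% of reads were not aligned against 17.8 to 21.5% in the radicicol libraries. S2 cells are known for a blood cell character, and all 9 haemocyte markers examined were measured, among them Hml with 1116 to 4107 counts. Of the 3 peptide genes used as markers of insulin-producing cells, Ilp2 and Ilp3 had 0 counts and Ilp5 at most 1 count in each library. Of 4 neuronal markers elav rose, with 28, 135, 123 and 496 counts in time order, brp had 16 to 81 counts, and nSyb and Syt1 had at most 6. The 4 fat body markers had at most 4 counts each, the germline marker bam had 14 to 39, and of 3 muscle markers matched Act88F had 340 to 1021 and up and Mlc2 at most 50. The part of other cell types in the results was not tested. Levels below are in CPM, counts scaled by the library totals and TMM factors. Brackets after a level or a fold hold an exact 95% counting interval, which covers counting error only. A gene is called higher or lower between a pair of libraries when its levels differed 2-fold or more and the interval of the log2 fold left out 0. The words rose and fell mark genes with a slope over minutes in edgeR's quasi-likelihood test on the 4 libraries, at an adjusted p (Benjamini-Hochberg, all measured genes) under 0.05. The error in that test is the scatter of single libraries around a line, not the spread between replicate cultures.

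All 7 measured members rose over the hour, where 34.1% of all measured genes rose and 33.8% fell. At 15 min none of the 7 was called higher (1.4% of all measured genes were), at 30 min 3 were (3.35% of all), and at 60 min 6 were (19.7% of all). With the trend of folds with exon length subtracted, as given further on, 1 was called at 30 min (2.34% of genes with a length) and 5 at 60 min (9.27%), foxo and srl losing the call and Thor gaining it. None was called lower in any comparison with DMSO. The median log2 fold of the 7 was 0.72 at 15 min, 0.75 at 30 min and 2.38 at 60 min, against medians of 0, 0 and -0.02 over all measured genes. The members were chosen with earlier results of these data known, so these counts and medians can follow in part from that choice. All folds over DMSO share that library, and in such bulk RNA a change in the share of cells and a change in RNA per cell cannot be told apart.

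**Figure D1:**
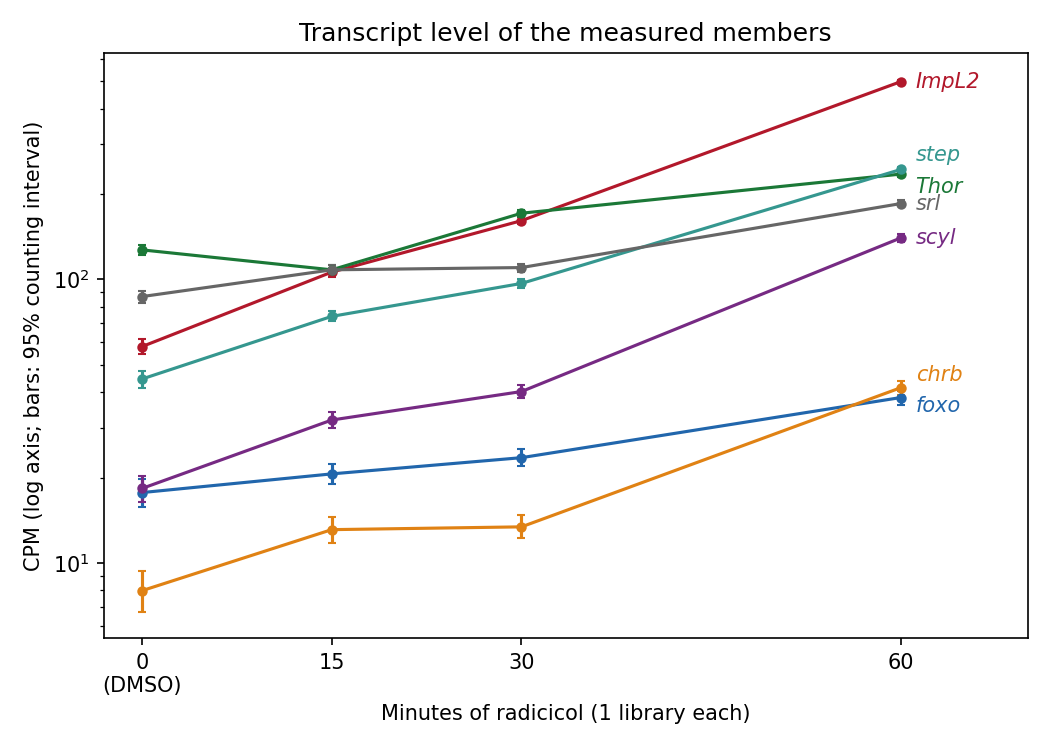
Level of each of the 7 measured genes in CPM (log axis) against minutes of radicicol, with 1 library per time and bars for the 95% counting interval. ImpL2 climbs from 57.9 to 498 CPM and ends highest, chrb starts lowest at 7.98 CPM, and Thor is the only gene of the 7 whose 15 min value lies below its DMSO value.

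ImpL2 encodes a secreted protein with immunoglobulin domains that binds insulin-like peptides and keeps them from the receptor. Its level was 57.9 CPM in DMSO (54.5 to 61.5), 106 at 15 min (102 to 109), 161 at 30 min (157 to 166) and 498 at 60 min (490 to 506). Each library stood above the one before it and no intervals overlapped. The log2 fold over DMSO was 0.87 at 15 min (0.77 to 0.97), 1.48 at 30 min (1.38 to 1.57) and 3.10 at 60 min (3.01 to 3.19), an 8.59-fold difference, and 1.69% of measured genes had a higher fold at 60 min. The slope was 3.06 log2 units per 60 min (adjusted p = 0.000136, edgeR), and only 3 of the 7883 measured genes had a smaller p in that test. That p weighs the slope against the scatter around a line, so its rank is not a rank by size of change. In the later annotation used for lengths, 61.9% of the exon bases of ImpL2 overlap the gene CG46460, which matched no ID of the counts, so reads from that overlap cannot be assigned to ImpL2 alone.

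Transcripts of most insulin-like peptides, the ligands that ImpL2 binds, were not detectable at this depth. Ilp1, Ilp2, Ilp3 and Ilp4 had 0 counts in each library, which allows at most 0.165 CPM in DMSO and at most 0.0992 CPM in a radicicol library when 3 counts are taken as the limit. Ilp5 and Ilp7 had at most 1 count, and Ilp8, a relaxin-like peptide, had 5, 8, 9 and 16 counts in time order. Ilp6, the peptide of the larval fat body, was the exception with 583, 1196, 1223 and 1050 counts, and its log2 fold at 60 min was 0.11 (-0.04 to 0.26) with a slope of 0.02 (adjusted p = 0.913, edgeR). Sdr, a secreted relative of the receptor that also binds insulin-like peptides, had 1 count at 15 min and 0 in the other libraries.

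foxo encodes the FOXO transcription factor that insulin signalling restrains. Its level was 17.7 CPM in DMSO (15.8 to 19.7), 20.6 at 15 min (19.0 to 22.3), 23.5 at 30 min (21.9 to 25.3) and 38.3 at 60 min (36.1 to 40.5). The intervals of neighbouring times overlapped up to 30 min, and the 60 min library stood clear of the rest. The log2 fold was 0.22 at 15 min (0.02 to 0.42), 0.41 at 30 min (0.22 to 0.61) and 1.12 at 60 min (0.94 to 1.30). With the length trend subtracted it was -0.04, 0.13 and 0.37, so no higher level at 15 min remained and the call at 60 min was lost. The slope was 1.13 per 60 min (adjusted p = 0.000829, edgeR), but without the 60 min library foxo no longer passed (slope 0.83, adjusted p = 0.163).

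Thor encodes 4E-BP, which binds the cap-binding factor eIF4E1 and so holds back translation, and TOR releases this block by phosphorylating it. Its level was 127 CPM in DMSO (122 to 132), 108 at 15 min (104 to 112), 171 at 30 min (166 to 175) and 235 at 60 min (229 to 240). It thus stood lower at 15 min than in DMSO before it stood higher. The log2 fold was -0.23 at 15 min (-0.31 to -0.16), -0.08 when scaled by total counts, and 0.11 once the trend of folds with exon length, given further on, was subtracted, so its direction at 15 min turns with the processing. At 30 min the log2 fold was 0.43 (0.36 to 0.50) and at 60 min 0.89 (0.82 to 0.96), short of 2-fold. Set against the 15 min library in place of DMSO, Thor was called higher at 60 min, with a log2 fold of 1.12 (1.06 to 1.18). The slope was 1.03 per 60 min (adjusted p = 0.00571, edgeR), and Thor was the only member that gained more CPM per minute from 15 to 30 min (4.2) than from 30 to 60 min (2.12).

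Both genes of the foxo and Thor pair can be set against each other within a library, where no scaling enters. Thor had 7.18 reads for each foxo read in DMSO (6.38 to 8.09), 5.24 at 15 min (4.81 to 5.72), 7.26 at 30 min (6.72 to 7.85) and 6.13 at 60 min (5.76 to 6.53). The ratio went down, up and down again, and the DMSO and 30 min values had overlapping intervals. The ratio is not free of the trend with exon length: at 60 min the log2 folds over DMSO were 0.89 for Thor and 1.12 for foxo, but 1.76 and 0.37 with that trend subtracted, so the direction of the ratio at 60 min against DMSO turns.

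scyl and chrb are the fly relatives of the mammalian REDD genes, and their products restrain TOR upstream of the Tsc1 and gig (Tsc2) complex. They lie on the same chromosome arm, 3L, with 33 other annotated genes between them. The level of scyl was 18.3 CPM in DMSO (16.4 to 20.3), 31.9 at 15 min (29.9 to 34.0), 40.2 at 30 min (38.1 to 42.5) and 140 at 60 min (135 to 144). The level of chrb was 7.98 CPM (6.73 to 9.39), 13.1 (11.8 to 14.5), 13.4 (12.2 to 14.8) and 41.5 (39.2 to 43.8) in the same order. Both stood higher at 15 min than in DMSO, and the 30 min level of chrb lay within the interval of its 15 min level.

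For scyl the log2 fold over DMSO was 0.80 at 15 min (0.62 to 0.99), 1.14 at 30 min (0.96 to 1.32) and 2.93 at 60 min (2.77 to 3.10), and it rose by 2.89 per 60 min (adjusted p = 0.000291, edgeR). For chrb it was 0.72 (0.44 to 1.0), 0.75 (0.48 to 1.03) and 2.38 (2.13 to 2.64), with a slope of 2.31 (adjusted p = 0.000719, edgeR). Reads of scyl outnumbered those of chrb by 2.29 in DMSO (1.88 to 2.80), 2.44 at 15 min (2.17 to 2.75), 3.0 at 30 min (2.68 to 3.35) and 3.37 at 60 min (3.16 to 3.59). This ratio within a library needs no scaling, and its DMSO and 60 min intervals did not overlap, so the share of scyl in the pair was larger at 60 min.

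step encodes steppke, an exchange factor for ARF GTPases of the cytohesin family that insulin signalling needs in the fly. Its level was 44.5 CPM in DMSO (41.4 to 47.6), 74.0 at 15 min (71.0 to 77.1), 96.7 at 30 min (93.3 to 100) and 244 at 60 min (238 to 249). As for ImpL2, each library stood above the one before it with no overlap. The log2 fold was 0.74 (0.62 to 0.85), 1.12 (1.01 to 1.24) and 2.45 (2.35 to 2.56) at 15, 30 and 60 min, and the slope was 2.40 per 60 min (adjusted p = 0.000209, edgeR).

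srl encodes spargel, the fly relative of the mammalian coactivator PGC-1, which promotes genes of mitochondrial function. Its level was 86.9 CPM in DMSO (82.7 to 91.3), 108 at 15 min (104 to 112), 110 at 30 min (106 to 113) and 185 at 60 min (181 to 190). The 15 and 30 min intervals overlapped, and the 60 min library stood apart. The log2 fold was 0.31 (0.23 to 0.40), 0.33 (0.25 to 0.42) and 1.09 (1.01 to 1.17) in time order. With the length trend subtracted it was 0.02, 0 and 0.20, so the call at 60 min was lost. The slope was 1.06 per 60 min (adjusted p = 0.00116, edgeR), and srl no longer passed without the 60 min library (slope 0.66, adjusted p = 0.154).

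Placed in order of their log2 fold at 60 min, ImpL2 and scyl led with overlapping intervals, step and chrb followed with overlapping intervals, and foxo, srl and Thor came last. Within that last group the intervals of srl and Thor did not overlap, while that of foxo overlapped both. This order holds for the uncorrected folds: with the length trend subtracted Thor (1.76) stood above step (1.53) and chrb (1.22).

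**Figure D2:**
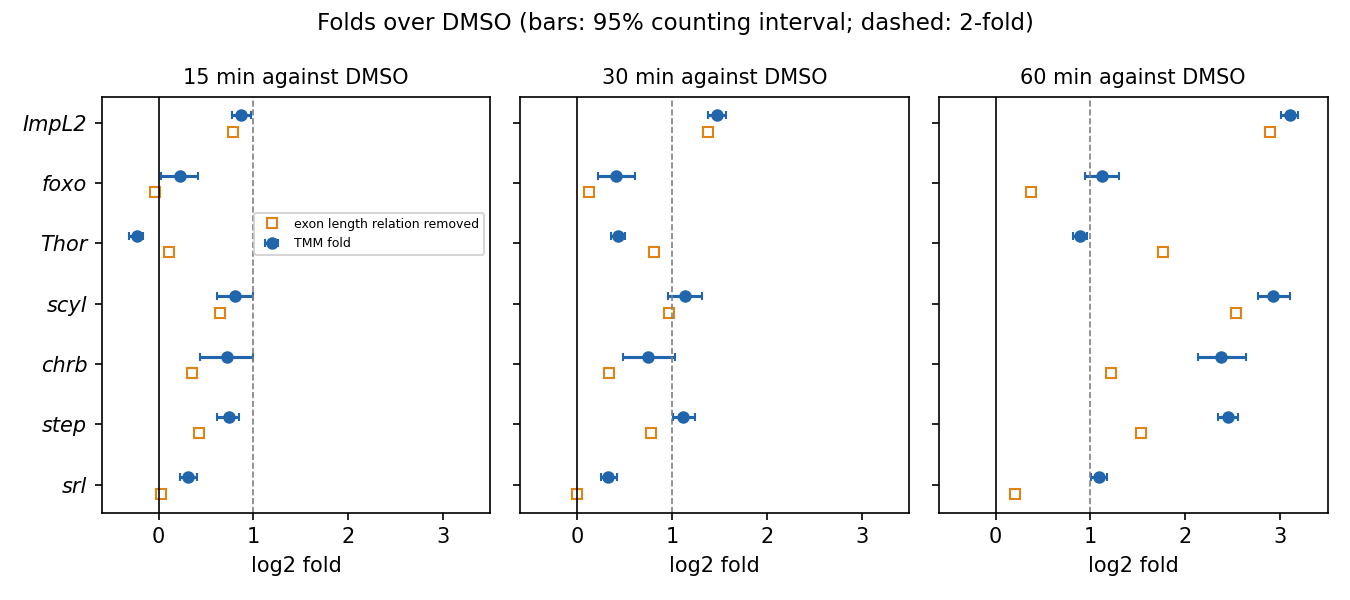
Log2 fold over DMSO of the 7 measured genes at 15, 30 and 60 min, as filled circles with 95% counting intervals and, as open squares, after subtraction of the trend with exon length; the dashed line marks 2-fold. At 60 min ImpL2 stays near 3 in both (3.10 and 2.89), Thor moves up from 0.89 to 1.76, and foxo and srl move down to 0.37 and 0.20.

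The next comparison asks when the transcripts changed, by steps between radicicol libraries that leave DMSO out. From 15 to 30 min none of the 7 genes was called higher (0.799% of all measured genes were). The largest log2 differences in that step were those of Thor with 0.66 (0.60 to 0.73) and ImpL2 with 0.61 (0.54 to 0.67). Those of chrb with 0.04 (-0.16 to 0.24) and srl with 0.02 (-0.05 to 0.09) had intervals that include 0. From 30 to 60 min 4 of the 7 were called higher (9.81% of all were). They were scyl with 1.79 (1.70 to 1.89), ImpL2 with 1.63 (1.58 to 1.67), chrb with 1.63 (1.47 to 1.79) and step with 1.33 (1.27 to 1.39), and with the length relation removed only ImpL2 (1.51) and scyl (1.56) of these were called (3.53% of genes with a length were). From 15 to 60 min 5 of the 7 were called higher (13% of all were), all but foxo with 0.90 (0.75 to 1.04) and srl with 0.78 (0.72 to 0.84). For this pair of libraries no fold with the length relation removed is given, so its count compares only with the uncorrected ones.

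Most of the CPM that each gene gained between DMSO and 60 min came after 30 min. The share gained after 30 min was 83.7% for chrb, 81.9% for scyl, 76.9% for srl, 76.5% for ImpL2, 73.8% for step, 71.5% for foxo and 59.1% for Thor. The interval from 30 to 60 min also spans more minutes than the others. Per minute, ImpL2 gained 3.18 CPM before 15 min, 3.70 from 15 to 30 min and 11.2 from 30 to 60 min, whereas chrb gained 0.341, 0.0228 and 0.935 CPM and srl 1.41, 0.109 and 2.53 CPM. For chrb and srl the middle interval was thus nearly flat. These shares and rates are not corrected for exon length. With the length relation removed, the log2 fold from 30 to 60 min was 0.20 for srl, 0.24 for foxo and 0.75 for step. It was 0.88 for chrb, 0.95 for Thor, 1.51 for ImpL2 and 1.56 for scyl.

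**Figure D3:**
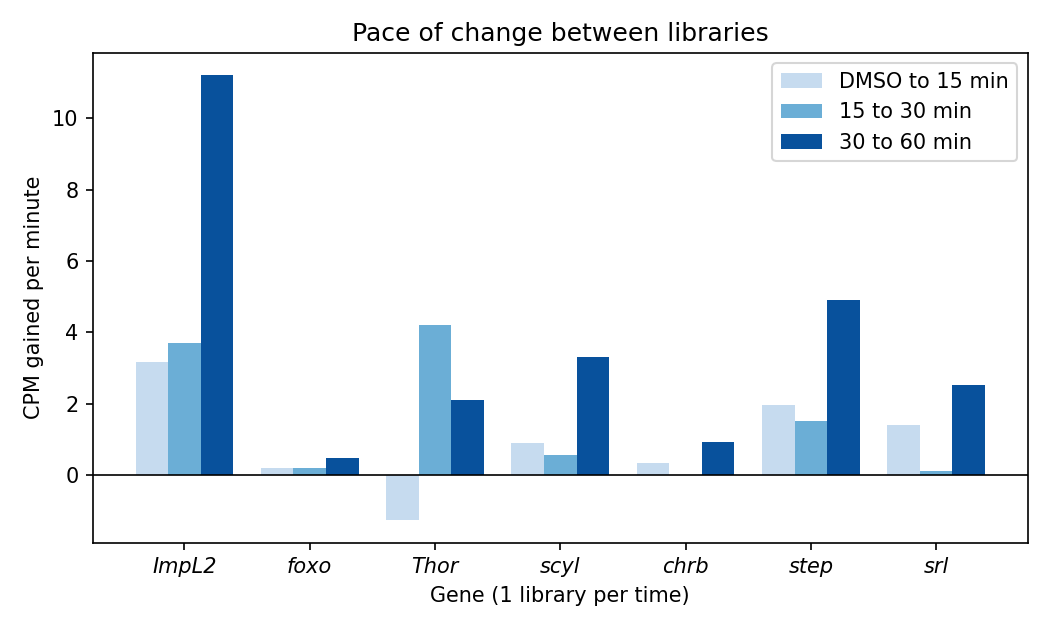
CPM gained per minute between neighbouring libraries for the 7 measured genes, as bars from 0 for DMSO to 15 min, 15 to 30 min and 30 to 60 min. ImpL2 reaches 11.2 CPM per minute in the last interval, and Thor is the only gene with a negative first bar (-1.26) and with its tallest bar in the middle interval (4.2). The rates are not corrected for exon length.

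Exon length moved with the folds over DMSO across the transcriptome and is given beside these results. Across 7219 measured genes with an exon length, the Spearman correlation of length with the log2 fold was 0.67 at 15 min, 0.62 at 30 min and 0.69 at 60 min. It was 0.17 for the step from 15 to 30 min and 0.70 for the step from 30 to 60 min. These genes share libraries and are not independent replicates. Of the measured genes with 3344 exon bases or more 51% were called higher at 60 min, against 12.8% of those with 2037 to 3343 bases, 4.49% of those with 1282 to 2036 and 4.04% of those with 1281 or fewer.

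The longest members were chrb with 5960 exon bases, step with 4776, srl with 4642 and foxo with 4130, all in the longest of these classes. The genes scyl with 3124 and ImpL2 with 2667 bases belong to the class of 2037 to 3343 bases, and Thor with 755 bases to the shortest. Within its own length class, ImpL2 had 1.33% of genes above its fold at 60 min, scyl 1.44%, Thor 4.49%, step 7.65% and chrb 8.59%, whereas foxo and srl had 45.5% and 46.3% above them. After a loess fit of fold on length was subtracted, 5 of the 7 were called higher at 60 min (9.27% of genes with a length were), with log2 folds of 2.89 for ImpL2, 2.53 for scyl, 1.76 for Thor, 1.53 for step and 1.22 for chrb. The corrected folds of foxo and srl were 0.37 and 0.20, and their corrected slopes of 0.42 (adjusted p = 0.0118, edgeR) and 0.21 (adjusted p = 0.0424, edgeR) still passed. In that corrected test 1940 measured genes rose and 1923 fell, so passing it does not set foxo and srl apart. At 30 min only ImpL2 was called after the correction, with 1.38, while scyl had 0.97 and step 0.78. The part of length in the uncorrected folds was not tested further.

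**Figure D4:**
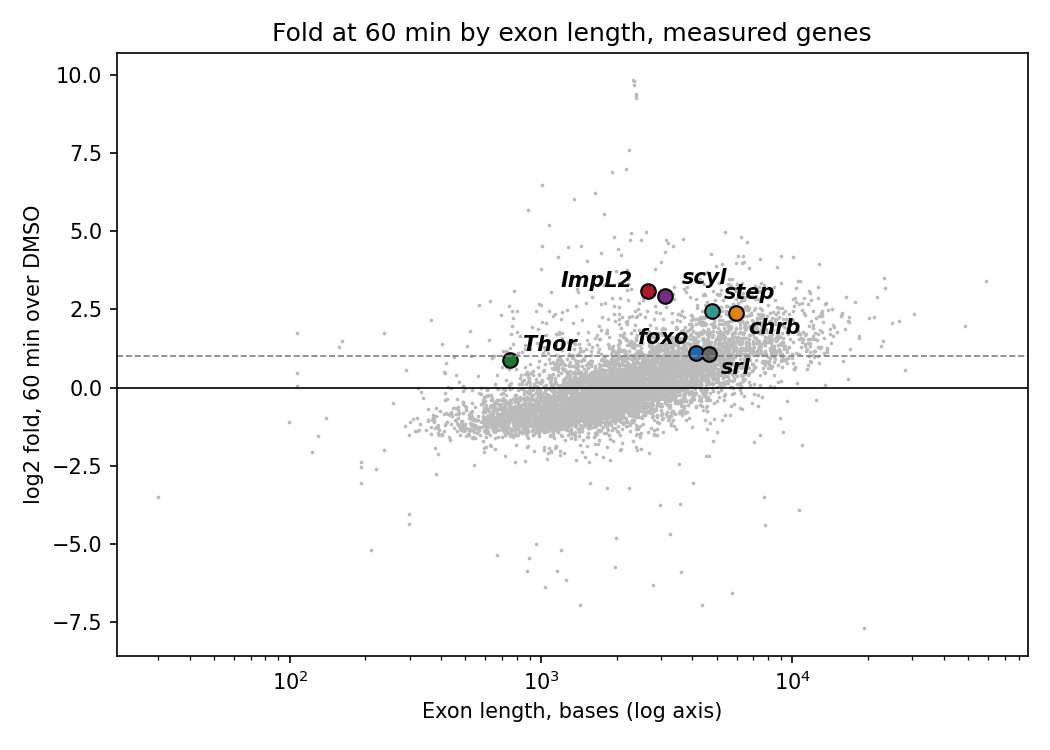
Log2 fold at 60 min over DMSO against exon length in bases (log axis) for the 7219 measured genes with a length (grey), with the 7 genes marked. foxo and srl lie within the cloud of genes of their length, while Thor, at 755 bases, lies near the upper edge of the short genes.

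Divided by exon length, Thor transcripts were the most abundant of the 7 in each library. The level per kilobase in DMSO was 168 CPM for Thor (161 to 175), 21.7 for ImpL2 (20.4 to 23.1), 18.7 for srl (17.8 to 19.7), 9.31 for step (8.68 to 9.97), 5.85 for scyl (5.23 to 6.51), 4.28 for foxo (3.82 to 4.77) and 1.34 for chrb (1.13 to 1.57), with no overlap between neighbours. At 60 min the order was Thor with 311 (303 to 318), ImpL2 with 187 (184 to 190), step with 51.0 (49.9 to 52.2), scyl with 44.7 (43.4 to 46.1), srl with 39.9 (38.9 to 41.0), foxo with 9.26 (8.74 to 9.81) and chrb with 6.96 (6.58 to 7.35), again without overlap. Thus srl, ahead of step and scyl in DMSO, stood behind both at 60 min. Within each library step had 0.511 reads for each srl read in DMSO (0.469 to 0.557), 0.685 at 15 min (0.649 to 0.723), 0.882 at 30 min (0.840 to 0.927) and 1.31 at 60 min (1.27 to 1.36).

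By the distance between their 3 log2 folds over DMSO, the patterns most like those of the members were found among 6293 genes with a symbol and a mean of at least 100 counts. Nearest to scyl were RhoGAP71E (distance 0.0439 log2 units) and bun (0.0582), and nearest to chrb were Usp2 (0.0703) and pcx (0.0738). Nearest to step were Smg5 (0.0342) and the ecdysone-induced ETS factor gene Eip74EF (0.0391), whose folds of 0.77, 1.10 and 2.45 ran close to those of step. foxo had Uhg1 (0.0318) and sktl (0.0379), and srl had pns (0.0229) and emb (0.0334). ImpL2 and Thor stood farther from any other gene, with l(1)G0469 (0.162) and Afti (0.168) nearest to ImpL2 and by (0.114) and CG4629 (0.155) nearest to Thor. Each likeness rests on the same 4 libraries.

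The other genes of the pathway, in lists of 95 symbols of which 81 matched an ID, put the members in context. Of the 68 that were measured 35 rose and 13 fell, and at 60 min 23 were called higher and 1 lower, where 34.1% and 33.8% of all measured genes rose and fell and 19.7% and 12.6% were called higher and lower. The counts of the single lists below stand against these same shares, and several lists are small and near them. Their median log2 fold at 60 min was 0.37, against 2.38 for the members and -0.02 for all measured genes, and it was 0.08 with the length relation removed, against 1.53 and -0.01. With that relation removed 6 of the 68 were called higher, a share no larger than the 9.27% of all genes with a length, and 1 was called lower. Members and lists were chosen with earlier results of these data known, so the gap between their medians can follow in part from that choice. TOR itself, S6k, the hypoxia factor gene sima and the FOXO target Myc matched no ID and were not analysed here.

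Of 8 measured genes that act next to the receptor 6 rose and 0 fell. Pi3K21B, the regulatory subunit of PI3K, had 7.59 CPM in DMSO, 16.6 at 15 min, 17.2 at 30 min and 52.5 at 60 min, and it was called higher at every time, with log2 folds of 1.13 (0.86 to 1.41), 1.18 (0.91 to 1.46) and 2.79 (2.54 to 3.05). At 60 min Pdk1, a kinase that activates Akt, had 2.29 (2.19 to 2.39), the catalytic subunit Pi3K92E 1.94 (1.84 to 2.04), the adaptor gene dock 1.42 (1.32 to 1.53) and Akt 1.14 (1.05 to 1.22), all of which rose. The adaptor chico had 0.22 (0.09 to 0.35) and did not pass the slope test (adjusted p = 0.348, edgeR). With the length relation removed Pi3K21B (1.83), Pdk1 (1.03) and Pi3K92E (1.0) were still called higher at 60 min, and Akt (0.18) and dock (0.80) were not. For 15 and 30 min no corrected fold of these genes is given, so the calls of Pi3K21B at those times are uncorrected.

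The other genes of the TOR restraint list did not share the size of the scyl and chrb folds. Of 11 measured 5 rose, 3 fell and 1, REPTOR, was called higher at 60 min. The median log2 fold was 0.12 (-0.20 with the length relation removed). These counts and the median include REPTOR and REPTOR-BP, which act below TOR and do not themselves restrain it. Tsc1 and gig, whose products form the complex below scyl and chrb, rose with log2 folds at 60 min of 0.64 (0.49 to 0.79) and 0.93 (0.77 to 1.08), and Sesn, which encodes sestrin, rose with 0.72 (0.59 to 0.86). After the correction these were -0.04, -0.21 and -0.20, so that none kept a positive sign, and the value of Tsc1 was small. REPTOR, a transcription factor that TOR holds back, was called higher at 15 min (1.06, 0.84 to 1.28) and 60 min (1.43, 1.22 to 1.65) but not at 30 min (0.65, 0.43 to 0.88), and had 0.08 at 60 min after correction. No corrected fold of REPTOR is given for 15 min, so that call is uncorrected. Its partner REPTOR-BP fell, with -0.83 (-0.95 to -0.70) and 0.14 after correction.

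Of 9 measured genes in the list of TOR complexes and activators 4 rose and 2 fell. raptor, which defines TOR complex 1, had 2.03 at 60 min (1.69 to 2.38), and rictor and Sin1, which belong to TOR complex 2, had 1.67 (1.5 to 1.85) and 1.21 (1.05 to 1.38). Mondo, a sugar-sensing transcription factor gene that the list also holds though it belongs to neither TOR complex, had 1.62 (1.54 to 1.71). All 4 rose, but after the length correction only Sin1 (1.32) of them was called, the others standing at 0.68, 0.38 and 0.61. The genes that fell were Wdr24 with -0.82 (-0.94 to -0.71) and RagA-B with -0.48 (-0.60 to -0.37), named after their values were seen. After correction Wdr24, at -1.05, was called lower, and RagA-B had -0.01. The TOR activator Rheb had 0.14 (0.03 to 0.26) and no slope past the threshold (adjusted p = 0.296, edgeR).

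Among 7 measured partners of Thor and other translation initiation genes 6 rose and 1 fell. The cap-binding factor eIF4E1 had 0.30 at 60 min (0.25 to 0.35), while the cap-binding repressor eIF4EHP had 1.94 (1.70 to 2.18), eIF4G2 1.45 (1.33 to 1.57), the scaffold eIF4G1 1.38 (1.34 to 1.42) and the kinase gene Lk6 1.23 (1.19 to 1.27). After the length correction none of the 7 was called, eIF4EHP having 0.70 and Lk6 -0.07.

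Other genes listed as FOXO targets did not move as a group. Of 8 measured 4 rose and 1 fell, with a median log2 fold of 0.28 at 60 min. The cell death gene rpr, which other pathways also control, had 1.23 (0.85 to 1.63) and the TGF-beta family ligand daw 1.44 (1.24 to 1.65), and both rose (2.02 and 0.99 after correction). The lipase gene bmm had -0.06 (-0.17 to 0.05) and a slope of -0.14 (adjusted p = 0.461, edgeR), and Sod2, the mitochondrial superoxide dismutase, fell with -0.99 (-1.07 to -0.92), which was -0.28 after correction. Of 8 measured regulators of FOXO 5 rose and 1 fell, among them the deacetylase gene Sirt1 with 1.82 (1.71 to 1.94) and the Hippo pathway kinase genes hpo with 1.22 (1.06 to 1.38) and wts with 1.02 (0.91 to 1.13). Corrected for length, Sirt1 (1.17) was called and wts (-0.11) and hpo (0.95) were not.

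Of 6 measured ARF GTPases and exchange factors 4 rose and 1 fell, and the exchange factor genes Sec71, siz and Efa6 had 1.74 (1.60 to 1.88), 1.71 (1.40 to 2.03) and 1.63 (1.51 to 1.76) at 60 min, but 0.60, 0.38 and 0.13 after correction, against 1.53 for step. Of 7 measured partners of srl and genes of mitochondrial biogenesis 1 rose and 4 fell. ewg, the relative of mammalian NRF1, rose with 1.14 (0.91 to 1.37), while the nuclear receptor gene ERR and the mitochondrial DNA-binding protein gene mtSSB fell with -0.80 (-0.95 to -0.66) and -1.10 (-1.18 to -1.02). The corrected values were -0.19 for ewg, -0.80 for ERR and -0.08 for mtSSB. After correction 0 genes of either list were called, and the medians at 60 min went from 1.30 to 0.27 for the ARF list and from -0.50 to -0.19 for the srl list. In the hypoxia list 2 genes were measured, and neither Ldh with 0.05 (-0.04 to 0.15) nor Vhl with -0.40 (-0.80 to -0.01) was called.

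**Figure D5:**
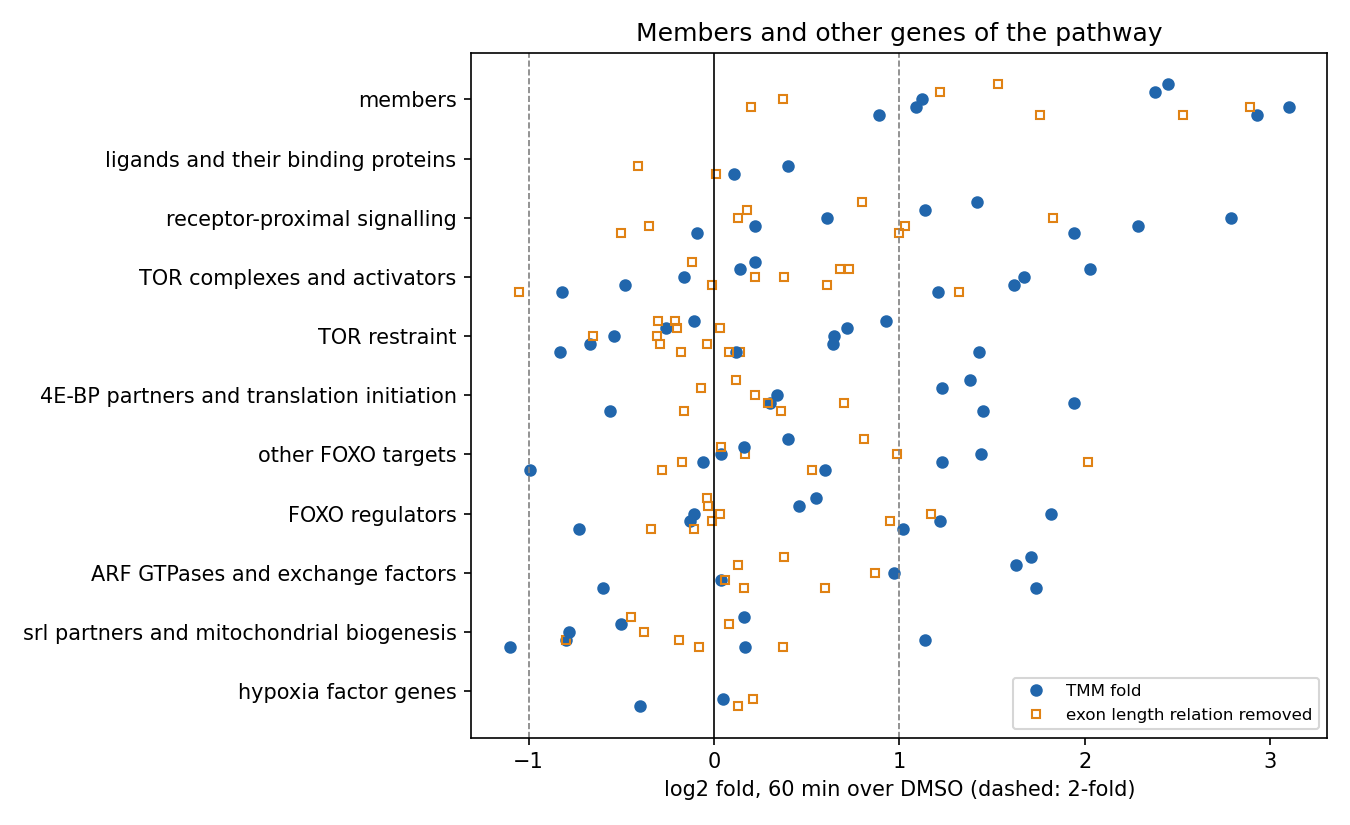
Log2 fold at 60 min over DMSO for each measured gene of the member and pathway lists, as filled circles, and with the exon length relation removed, as open squares; dashed lines mark 2-fold in either direction. The member row reaches 3.10 and stays partly beyond 2-fold after the correction, while most pathway genes past 2-fold move back inside it.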

How the data were processed

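The authors deposited raw read counts per FlyBase gene, 1 file per library, without normalisation. Bowtie, HTSeq and the genome build dm3 are listed in the submitters' processing notes. Versions, options, the strand setting and the gene annotation were not given in the sources used here. The 5 HTSeq entries that name no gene stayed out of library sizes and tests. Symbols came from a later name table (13524 IDs matched) and exon lengths from Ensembl release 115 on BDGP6, so no coordinates are printed.

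Counts were analysed in R 4.3.3 with edgeR 4.0.16 (TMM against DMSO, glmQLFit and glmQLFTest on minutes, 2 residual degrees of freedom), with DESeq2 1.42.0 and limma 3.58.1 as alternatives, after tests on simulated data. Intervals are Clopper-Pearson intervals of a share of counts, or Poisson intervals of a count. They cover counting error only, since PCR copies of a molecule count as separate reads. The length relation was a loess fit of log2 fold on log exon length (span 0.5).

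Members and lists were chosen with earlier results of these data known. Named genes were the members, a core chain of the pathway, pathway genes past 2-fold at 60 min and, for each member, the 2 genes nearest in pattern. Cell type markers formed a separate list. Genes named outside these rules include Wdr24, RagA-B, REPTOR-BP, Sod2, ERR, Ldh, Vhl and the peptide genes other than Ilp6. Those of them that fell were therefore not picked by rule. From the core chain 1 gene is not reported here. Lists are described by counts and medians only.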

Additional observations from a re-analysis of the deposited data

How the results depend on the processing

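All 7 measured members rose under each alternative tried for the slope except 1: without the 60 min library 5 rose, foxo and srl not, and over all genes 904 rose and 584 fell in place of 2685 and 2668. Leaving out each library in turn thus gave 5 to 7 members. Scaling by total counts shifted the median log2 fold at 15 min by 0.16 and made 1 member, ImpL2, higher at 15 min in place of 0. With the length relation removed 1 member in place of 3 was higher at 30 min, 2 in place of 4 from 30 to 60 min, and 5 in place of 6 at 60 min. At 1.5-fold 4 members were higher at 15 min and 2 from 15 to 30 min, in place of 0 and 0, and at 3-fold 0 were higher at 30 min. The shares of all measured genes called at 1.5-fold, at 3-fold and with total counts are not given here. Those member counts therefore show only how the calls depend on the setting. Against the 15 min library 0 members were higher at 30 min. No member's called fold or slope changed sign. No paired analysis was possible because each condition has 1 library. Depth limits chrb most, with 145 counts in DMSO, and the peptide genes.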
